A study of Mus musculus with 6 samples.

Results

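Potassium channels and the related HCN channels were examined in sorted mouse pituitary cells as a set of 44 genes. The genes were chosen by symbol, with earlier results of these data known. All of them were found among the 22869 named genes of the deposited expression table. For the 12 genes that had more than 1 row, the most abundant row on average was used. RNA sequencing had been done on 3 somatotrope libraries (growth hormone cells) and 3 lactotrope libraries (prolactin cells), each titled as a biological replicate, from the pituitary of female hybrids of CD1 x C57BL/6, 6 to 8 weeks old, for which no treatment is named. The cells had been isolated by fluorescence-activated cell sorting (FACS). Neither the sort marker nor the number of animals behind a library is stated in the sources at hand, and p-values therefore measure only the spread between these libraries, which may be technical. Levels are in FPKM, which counts fragments relative to transcript length and to the size of the library.

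Potassium channels let potassium leave the cell, which holds the membrane potential negative and ends action potentials, and HCN channels carry a depolarizing pacemaker current that opens on hyperpolarization. Somatotropes and lactotropes fire spontaneously, and the shape of their electrical activity sets how much calcium enters and how much hormone is released. BK channels, opened by calcium and voltage together, are known for prolonging the plateau bursts of pituitary cells, ERG and two-pore channels act near the resting potential, and G protein-gated GIRK channels are opened through inhibitory receptors such as those for dopamine and somatostatin.

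The promoters of 4 genes are shown because the results below turn on them: the BK pore gene Kcnma1 and its partners Kcnmb2 and Kcnmb4, which lay on the same side in all 3 replicate pairs, and the two-pore channel Kcnk1, the most abundant of the 44 genes. Each sequence is the 250 bases before the annotated start (RefSeq, GRCm38.p6), read 5′ to 3′ on the gene's strand, and capitals mark the GC box GGGCGG on either strand. The windows are chr14:24004206-24004455 (minus strand), chr3:31902453-31902702 (plus strand), chr10:116473524-116473773 (minus strand) and chr8:125994852-125995101 (plus strand).
Kcnma1: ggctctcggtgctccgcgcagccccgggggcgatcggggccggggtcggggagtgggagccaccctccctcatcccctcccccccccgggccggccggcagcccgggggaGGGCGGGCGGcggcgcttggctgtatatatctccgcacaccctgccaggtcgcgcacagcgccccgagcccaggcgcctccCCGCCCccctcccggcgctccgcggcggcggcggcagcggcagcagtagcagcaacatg
Kcnmb2: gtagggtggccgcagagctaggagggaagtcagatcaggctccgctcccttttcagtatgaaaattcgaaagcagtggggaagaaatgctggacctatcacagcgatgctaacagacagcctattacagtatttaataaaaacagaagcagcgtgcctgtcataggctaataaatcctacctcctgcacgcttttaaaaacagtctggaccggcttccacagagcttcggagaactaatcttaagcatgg
Kcnmb4: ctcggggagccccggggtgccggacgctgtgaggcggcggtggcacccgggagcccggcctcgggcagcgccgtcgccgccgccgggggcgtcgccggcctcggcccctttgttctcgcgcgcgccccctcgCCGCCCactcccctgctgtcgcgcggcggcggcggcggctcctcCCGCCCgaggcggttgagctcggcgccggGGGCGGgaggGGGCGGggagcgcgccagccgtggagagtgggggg
Kcnk1: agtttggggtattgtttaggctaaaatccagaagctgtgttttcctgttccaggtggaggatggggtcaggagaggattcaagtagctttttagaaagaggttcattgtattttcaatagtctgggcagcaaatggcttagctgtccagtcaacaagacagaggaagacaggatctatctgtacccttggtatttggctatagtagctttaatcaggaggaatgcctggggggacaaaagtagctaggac

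The GC box was found 3 times before Kcnma1, with matches that overlap, and 4 times before Kcnmb4, and these letters were not in the windows of Kcnmb2 and Kcnk1. It is held by 32.7% of 32851 mouse promoter windows of this length. The cyclic AMP response element core TGACG, in 17.8% of windows, and a Pit-1 type AT-rich site spelled ATGNATA, in 7.92%, were searched on both strands and were in none of these 4 windows. GC content was 79.2% before Kcnma1 and 83.6% before Kcnmb4, against 47.2% before Kcnmb2, 44.4% before Kcnk1 and a median of 52.4% over all windows. The 3 BK genes, whose transcript levels are given below, therefore differ in these features of their promoters. Of the 44 genes, 34 had an entry in the promoter table.

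The sort labels and the state of the libraries bear on all values that follow. Gh was 19384 to 84909 FPKM in somatotropes and 3954 to 7623 in lactotropes, and Prl was 8709 to 24481 and 25171 to 195325 FPKM. Replicate 1 libraries stood apart: 15 of the 17 channel genes that averaged 1 FPKM or more, and 16 of the other 27, had their highest value in a replicate 1 library. The same share over all genes was not computed, so these counts do not set channel genes apart from others. Lactotrope 3 listed 14.94% of the 11642 tested genes and 7 of those 17 channel genes at 0, while the other libraries listed 0.23% to 2.95% and at most 1. A 0 there is therefore reported as listed, not as absence. Fragment numbers are not given. Low values of short single-exon olfactory receptor genes stood on whole fragments in somatotrope 1 (all 143 values within 0.1 of a whole number). This put its depth near 28.7 M (mega) fragments. Somatotrope 1 listed 225 values of these receptor genes above 0. The other libraries listed too few for the estimate, with 5 and 8 in somatotropes 2 and 3 and 22, 6 and 1 in lactotropes 1 to 3. The cause of this difference was not tested. In these libraries of sorted cells, fewer cells of a type and less RNA per cell cannot be told apart.

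Other pituitary cell types were also measured in the sorted libraries. The 16 leukocyte markers summed to 311 to 6288 FPKM in somatotropes and 944 to 13956 in lactotropes, and 15 of them were higher in lactotropes in all 3 pairs, none being at 0 in any library. The 12 stem and folliculostellate markers summed to 332 to 2662 FPKM in somatotropes and 169 to 844 in lactotropes, and 8 were higher in somatotropes in all 3 pairs. Of these 12, S100b was listed at 0 in lactotropes 1 and 3, Gfap in these and in somatotrope 1, and Vim and Fxyd1 in lactotrope 3. The 8 endothelial markers summed to at most 3.67 FPKM. The 6 corticotrope and melanotrope markers summed to 96.2 to 5778 FPKM in somatotropes and 426 to 879 in lactotropes. The 6 gonadotrope markers summed to 309 to 1780 and 134 to 753 FPKM, and the 6 erythroid markers to 29.7 to 4259 and 5.34 to 3529 FPKM. Most of the gonadotrope sum was Cga, a marker of thyrotropes as well, at 297 to 1675 FPKM in somatotropes and 126 to 739 in lactotropes. The gonadotrope marker Lhb was at 2.15 to 77.7 and 2.90 to 15.8 FPKM. Summed levels of the 7 neural and neurohypophysis markers lay between 39.9 FPKM (lactotrope 3) and 242 FPKM (somatotrope 3). Among them, Avp had 0.135, 15.5 and 93.0 FPKM in the somatotrope libraries, in replicate order, against 0.112, 16.7 and 5.67 in the lactotrope libraries. Oxt lay between a listed 0 (lactotrope 1) and 99.5 FPKM (somatotrope 3). Sums of the 11 fibroblast and mural markers lay between 22.8 FPKM (lactotrope 3) and 72.0 FPKM (lactotrope 1). The part of these other cells in the channel values was not tested.

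**Figure D1:**
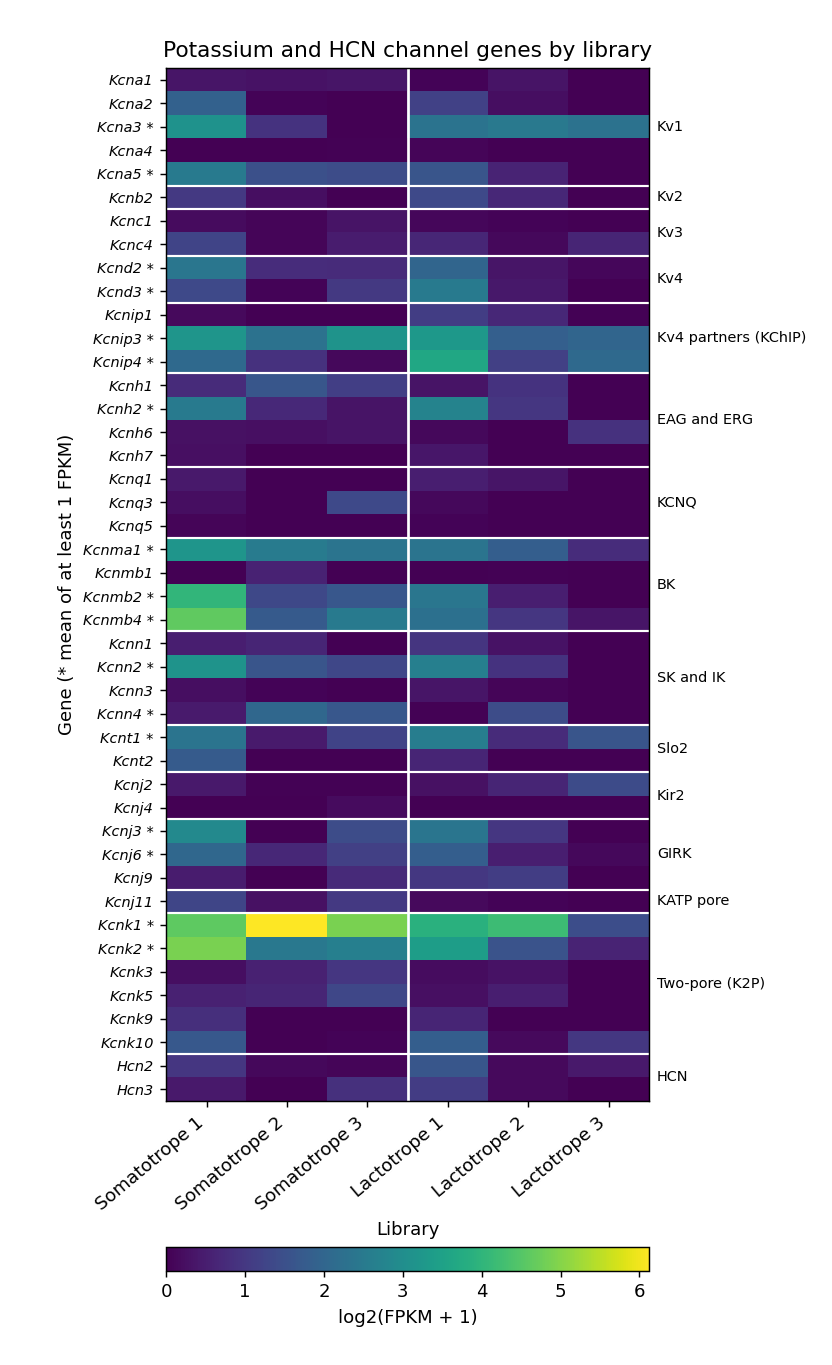
Heat map of log2(FPKM + 1) for the 44 channel genes (rows, grouped by class, with a star where the mean over the 6 libraries is at least 1 FPKM) in the 3 somatotrope and 3 lactotrope libraries (columns). Kcnk1 is the brightest row, at 68.6 FPKM in somatotrope 2, replicate 1 columns are brighter than the others for most genes, and lactotrope 3 is the darkest column.

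Of the 44 genes, 17 averaged 1 FPKM or more and were tested, and 27 had means of 0.0153 to 0.992 FPKM. No gene was at 0 in all 6 libraries, and 13 were above 0 in every library. The summed level of the 44 genes was 172, 102 and 73.8 FPKM in the somatotrope libraries, in replicate order, and 108, 44.5 and 20.1 FPKM in the lactotrope libraries. It was higher in somatotropes in each pair, and the groups overlapped.

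Somatotropes were compared with lactotropes for every tested gene with limma on log2(FPKM + 1). None of the 17 tested channel genes passed at an adjusted p of 0.05, against 0% of the 11642 tested genes, and the smallest adjusted p of a channel gene was 1 in limma and 0.235 in limma with the replicate number as a block. The hormone genes Gh and Prl did not pass either, with an adjusted p of 0.315 and 0.347 in limma with the replicate block. At an unadjusted p under 0.05, 1 of the 17 channel genes was higher in somatotropes (0.507% of all tested genes) and 0 of 17 in lactotropes (0.455%). With the replicate block, 7 of 17 reached an unadjusted p under 0.05 toward somatotropes (7.17% of all tested genes) and 1 of 17 toward lactotropes (3.75%). In all 3 same-numbered pairs 10 of 17 were higher in somatotropes (22.9% of tested genes) and 2 of 17 in lactotropes (11.2%).

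These counts are over genes chosen with earlier results of these data known, so beside the shares of all genes they are only a description. They are also over genes that passed a filter on the level, which a gene high in one cell type passes more easily. Without the filter, 15 of 44 had the higher value in somatotropes in every pair, beside 16.6% of the 19557 genes with any value, and 5 of 44 were higher in lactotropes, beside 8.05%. The median log2 difference of the 17 tested genes, somatotrope minus lactotrope, was 0.51, with 0.50, 0.45 and 1.31 in pairs 1, 2 and 3. The median of all tested genes was 0.18, with 0.0025, 0.12 and 0.36 in the pairs. Without the filter the median was 0.13 over the 44 genes and 0.07 over all genes with any value. Complete separation, with all 3 somatotrope libraries above all 3 lactotrope libraries, was found for 1 of 17 (2.51% of tested genes), and for 3 of 44 without the filter (2.23%). The reverse was found for 0 of 17 (1.15%) and 0 of 44 (0.997%).

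**Figure D2:**
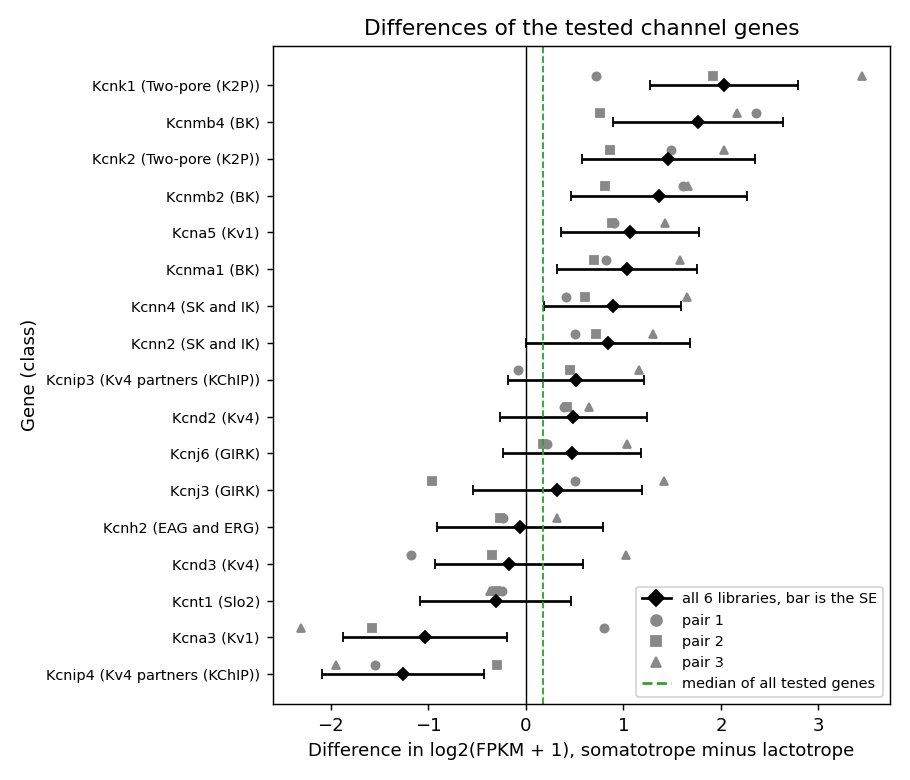
Difference in log2(FPKM + 1), somatotrope minus lactotrope, for the 17 tested channel genes, ordered by size, with the class in brackets. Diamonds with bars are the estimate and SE from all 6 libraries, grey symbols are the 3 replicate pairs, and the dashed line is the median of all tested genes at 0.18, with Kcnk1 at 2.03 and Kcnip4 at -1.26 as the ends of the order.

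The two-pore (K2P) channels, which pass background potassium current at rest, held the 2 genes with the highest means. Kcnk1 encodes the weakly conducting channel TWIK1 and lies at chromosome 8, 128519002 to 128554585 (mm9, plus strand). It had 23.3, 68.6 and 28.9 FPKM in somatotropes 1 to 3 and 13.7, 17.5 and 1.73 FPKM in lactotropes 1 to 3. Every somatotrope library lay above every lactotrope library, somatotrope 2 was the highest and lactotrope 3 far the lowest. The log2 difference was 2.03 (SE 0.76), above the 0.18 of all genes, and limma did not call it (adjusted p = 1.00, or 0.235 with the replicate block). The two-sided exact permutation p was 0.1, which is the minimum for 3 libraries a side.

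The separation of Kcnk1 depended on the scaling. After median-ratio scaling between libraries, which moved the median of all genes from 0.18 to 0.04, Kcnk1 stood at 13.0, 71.7 and 34.2 in somatotropes and 7.66, 20.8 and 2.73 in lactotropes. Somatotrope 1 then lay below lactotrope 2, while somatotropes were still higher within each pair. Without lactotrope 3 the log2 difference was 1.17, on the values as deposited. The summed stem and folliculostellate markers were 332, 2662 and 1348 FPKM in somatotropes and 191, 844 and 169 in lactotropes, so the libraries ranked as for Kcnk1 except that somatotrope 1 and lactotrope 2 changed places. Their part in the Kcnk1 values was not tested.

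Kcnk2 encodes the mechanosensitive and lipid-sensitive channel TREK1 and lies at chromosome 1, 191031809 to 191167583 (mm9, minus strand). Its level was 28.7, 4.43 and 5.27 FPKM in somatotropes and 9.60, 1.99 and 0.532 FPKM in lactotropes. Somatotropes were higher in each pair, but lactotrope 1 lay above somatotropes 2 and 3. The log2 difference was 1.46 (SE 0.89, limma adjusted p = 1.00), 0.68 without somatotrope 1, 0.84 without lactotrope 3 and 2.23 without lactotrope 1. Kcnk1 exceeded Kcnk2 in every library but somatotrope 1, by 15.5 times in somatotrope 2, 5.47 times in somatotrope 3, and 1.43, 8.79 and 3.25 times in lactotropes 1 to 3. In somatotrope 1 the ratio was 0.811.

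The other 4 two-pore genes had means under 1 FPKM and were not tested. Kcnk5, the acid-sensitive TASK2, had 0.468, 0.563 and 1.48 FPKM in somatotropes and 0.185, 0.427 and 0 FPKM in lactotropes. On these values as deposited the groups did not overlap. Median-ratio scaling divides somatotrope 1 by 1.79 and lactotrope 2 by 0.841, which puts somatotrope 1 below lactotrope 2. Kcnk3, the acid-sensitive TASK1, had 0.179 to 0.965 FPKM in somatotropes and 0 to 0.225 FPKM in lactotropes. Kcnk9 (TASK3) was listed at 0 in replicates 2 and 3 of both cell types. Kcnk10 (TREK2) was the gene just under the filter, at 2.23, 0 and 0.0509 FPKM in somatotropes and 2.55, 0.118 and 1.00 FPKM in lactotropes, higher in lactotropes in each pair.

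BK channels are built from the pore subunit Kcnma1 and beta subunits that change its gating, of which Kcnmb2 confers inactivation and Kcnmb4 is the beta subunit typical of neurons. Kcnma1 had 8.12, 4.81 and 4.12 FPKM in somatotropes and 4.16, 2.57 and 0.707 FPKM in lactotropes. Kcnmb4 had 23.5, 2.31 and 4.72 FPKM in somatotropes and 3.78, 0.949 and 0.274 FPKM in lactotropes. Kcnmb2 had 15.3, 1.52 and 2.17 FPKM in somatotropes and 4.33, 0.430 and a listed 0 FPKM in lactotropes. All 3 genes were higher in somatotropes in each pair and highest in somatotrope 1, and in all 3 lactotrope 1 lay above at least 1 somatotrope library.

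The log2 differences of the BK genes were 1.76 (SE 0.87) for Kcnmb4, 1.37 (SE 0.90) for Kcnmb2 and 1.04 (SE 0.72) for Kcnma1. None passed limma (adjusted p = 1.00 for each, and 0.268, 0.332 and 0.397 with the replicate block), and the exact permutation p was 0.2, 0.3 and 0.2. Without somatotrope 1 the difference was 0.93 for Kcnmb4 and 0.52 for Kcnmb2. Without lactotrope 3 it was 0.59 for Kcnma1 and 0.88 for Kcnmb2, and without lactotrope 1 it was 2.09 for Kcnmb2. After median-ratio scaling, Kcnma1 stood at 4.54, 5.02 and 4.89 in somatotropes and 2.33, 3.05 and 1.12 in lactotropes. Kcnmb4 then stood at 13.2, 2.41 and 5.59 in somatotropes and 2.12, 1.13 and 0.433 in lactotropes, and for both genes the groups no longer overlapped.

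**Figure D3:**
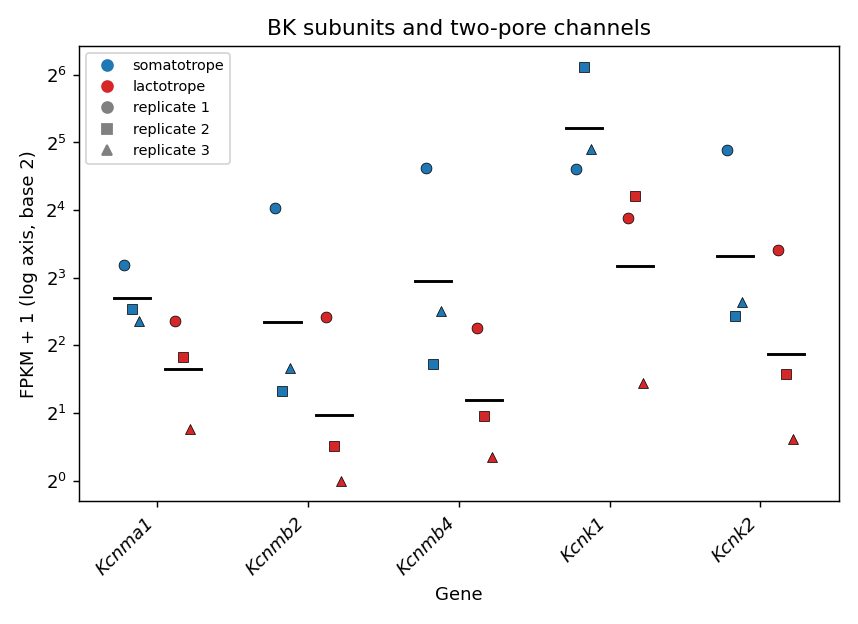
FPKM + 1 on a base 2 log axis for the BK genes Kcnma1, Kcnmb2 and Kcnmb4 and the two-pore channels Kcnk1 and Kcnk2, by cell type (color) and replicate (symbol), with black lines at the mean of log2(FPKM + 1). Kcnk1 is the gene among these 5 whose cell types do not overlap, and for the other 4 the red circle of lactotrope 1 lies among the somatotrope values.

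The balance of beta to pore subunit varied widely among libraries of the same cell type. Kcnmb4 was 2.90, 0.480 and 1.14 times Kcnma1 (FPKM ratio within a library) in somatotropes 1 to 3 and 0.910, 0.370 and 0.388 times in lactotropes 1 to 3. The ratio was higher in the somatotrope of each pair, with overlap between the groups. Kcnmb2 was 1.89, 0.316 and 0.526 times Kcnma1 in somatotropes and 1.04, 0.167 and 0 times in lactotropes. Kcnmb1, the smooth muscle beta subunit, was at most 0.492 FPKM, in somatotrope 2, and at 0 in 4 libraries.

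The position of Kcnmb4 limits its reading. The gene runs from 115854924 to 115910579 on the minus strand of chromosome 10 (mm9), and the transcript 1700058G18Rik lies within this span on the opposite strand, from 115855177 to 115858291. That transcript had 14.0, 2.58 and 6.21 FPKM in somatotropes and 2.26, 1.63 and a listed 0 FPKM in lactotropes, highest in somatotrope 1 and lowest in lactotrope 3 as Kcnmb4 was, and higher in somatotropes in each pair. Whether reads were counted by strand is not stated in the sources at hand, and without strand the reads of the 2 genes cannot be told apart. Kcnma1 (chromosome 14, 24117916 to 24823427, minus strand) and Kcnmb2 (chromosome 3, 31801625 to 32099102, plus strand) overlapped no other named gene of the table.

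Calcium-activated channels of small and intermediate conductance (SK and IK) follow the calcium that enters during firing. Kcnn2, the SK2 pore gene, had 7.79, 2.05 and 1.47 FPKM in somatotropes and 5.21, 0.850 and a listed 0 FPKM in lactotropes. Kcnn4, the IK gene, which is also used by immune cells and erythrocytes, had 0.368, 3.09 and 2.14 FPKM in somatotropes and 0.0290, 1.69 and a listed 0 FPKM in lactotropes. Both were higher in somatotropes in each pair and both overlapped, but Kcnn2 was highest in replicate 1 while Kcnn4 was lowest there among somatotropes. The log2 differences were 0.84 (SE 0.84) and 0.89 (SE 0.70), with a limma adjusted p of 1.00 for each. Kcnn2 moved to 0.26 without lactotrope 3, 0.28 without somatotrope 1 and 1.57 without lactotrope 1. Kcnn4 moved to 1.36 without lactotrope 2 and 1.35 without somatotrope 1. It fell to 0.65 without lactotrope 3, 0.67 without lactotrope 1 and 0.75 without somatotrope 3. Without somatotrope 2, Kcnn4 averaged under 1 FPKM and was not tested. Kcnn1 and Kcnn3, the SK1 and SK3 genes, were at most 0.926 FPKM. The sodium-activated channel Kcnt1 had 4.10, 0.370 and 1.36 FPKM in somatotropes and 5.03, 0.692 and 2.05 FPKM in lactotropes. In the row used it was higher in lactotropes in each pair by a small step, with a log2 difference of -0.31 (SE 0.77). The sign turned without lactotrope 1 (0.16) and without somatotrope 2 (0.14). In the other row of Kcnt1, pair 1 was reversed, with 3.99 FPKM in somatotrope 1 and 3.94 FPKM in lactotrope 1. Its relative Kcnt2 was above 0 only in the replicate 1 libraries, with 2.38 FPKM for the somatotrope and 0.559 FPKM for the lactotrope.

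Among voltage-gated Kv1 channels, Kcna3 and Kcna5 passed the filter. Kcna3, a channel also known from T cells and macrophages, had 7.75, 0.866 and a listed 0 FPKM in somatotropes and 4.03, 4.57 and 3.95 FPKM in lactotropes. The lactotrope values were close together while the somatotropes ran from the highest to the lowest of all 6 libraries. The log2 difference was -1.03 (SE 0.84, limma adjusted p = 1.00), positive in pair 1 (0.80) and negative in pairs 2 (-1.58) and 3 (-2.31). It was -0.36 without somatotrope 3 and -1.92 without somatotrope 1. The leukocyte markers summed to 311, 6288 and 3251 FPKM in somatotropes and 944, 13956 and 5121 in lactotropes, higher in the lactotrope of each pair. Kcna3 was higher in the lactotrope in pairs 2 and 3, and among lactotropes both were highest in lactotrope 2. Kcna3 was highest of all in somatotrope 1, where the marker sum was lowest. The part of leukocytes in the Kcna3 values was not tested.

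Kcna5, which encodes a delayed rectifier of heart and muscle, had 4.69, 1.82 and 1.68 FPKM in somatotropes and 2.04, 0.526 and a listed 0 FPKM in lactotropes. Lactotrope 1 lay between the somatotropes, and the log2 difference was 1.07 (SE 0.71, limma adjusted p = 1.00), or 0.70 without lactotrope 3. After median-ratio scaling its groups did not overlap. Kcna1 and Kcna2, the main axonal members, were at most 0.273 and 2.71 FPKM, the latter in somatotrope 1, and Kcna4, which gives A-type current, was at most 0.0585 FPKM. Kcnb2 (a Kv2 delayed rectifier) was at most 1.54 FPKM, in lactotrope 1. The fast Kv3 genes Kcnc1 and Kcnc4 were at most 0.244 and 1.37 FPKM.

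Kv4 channels carry A-type current, and their KChIP partners bind calcium and promote their surface expression. Kcnd2 had 4.27, 0.702 and 0.696 FPKM in somatotropes and 3.01, 0.273 and 0.0848 FPKM in lactotropes, higher in somatotropes in each pair with a log2 difference of 0.49 (SE 0.75). This was 0.13 without lactotrope 3, 0.25 without lactotrope 2, 1.08 without lactotrope 1, and 0.76 without somatotrope 2 or without somatotrope 3. Kcnd3 had 1.54, 0.0385 and 1.03 FPKM in somatotropes and 4.75, 0.324 and a listed 0 FPKM in lactotropes, with no common direction. Kcnip3, also known as the transcriptional repressor DREAM, had 8.17, 3.96 and 7.87 FPKM in somatotropes and 8.68, 2.63 and 2.98 FPKM in lactotropes. Its lowest value was 2.63 FPKM, in lactotrope 2, and its log2 difference was 0.51 (SE 0.70), positive in pairs 2 and 3. This was 0.25 without lactotrope 2, 0.32 without lactotrope 3, 0.96 without lactotrope 1 and 0.80 without somatotrope 2.

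Of the 17 tested genes, Kcnip4 lay farthest toward lactotropes. It had 3.29, 0.830 and 0.102 FPKM in somatotropes and 11.5, 1.25 and 3.24 FPKM in lactotropes, higher in lactotropes in each pair, with somatotrope 1 above lactotropes 2 and 3. The log2 difference was -1.26 (SE 0.83, limma adjusted p = 1.00, and 0.373 with the replicate block), -0.59 without lactotrope 1 and -0.81 without somatotrope 3. Kcnip4 was 0.402, 0.210 and 0.0130 times Kcnip3 in somatotropes and 1.32, 0.475 and 1.09 times Kcnip3 in lactotropes, so this within-library ratio did not overlap between the cell types. The ratio was chosen after the values were seen and is given without a test. Kcnip1 was also higher in lactotropes in each pair, at 0.122, 0 and 0 FPKM in somatotropes and 1.16, 0.612 and 0.0318 FPKM in lactotropes, and shares its span on the opposite strand with Kcnmb1.

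ERG channels pass an inward-rectifying current at rest that is known in lactotropes as a target of thyrotropin-releasing hormone. Kcnh2, the main ERG gene, had 4.71, 0.619 and 0.250 FPKM in somatotropes and 5.68, 0.951 and a listed 0 FPKM in lactotropes. In both cell types replicate 1 was far above the others, and the log2 difference of -0.06 (SE 0.85) turned sign without lactotrope 1 (0.69), somatotrope 2 (0.18) or somatotrope 3 (0.37), and with a pseudocount of 0.1 (0.33). The other ERG genes Kcnh6 and Kcnh7 were at most 0.835 and 0.284 FPKM. Kcnh1, an EAG channel, had 0.673, 2.11 and 1.21 FPKM in somatotropes and 0.249, 0.866 and 0.00140 FPKM in lactotropes, higher in somatotropes in each pair and under the filter. Of the KCNQ genes, which underlie M-type currents, Kcnq1 and Kcnq5 were at most 0.431 and 0.0587 FPKM, and Kcnq3 reached 1.56 FPKM in somatotrope 3 and at most 0.166 FPKM elsewhere.

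**Figure D4:**
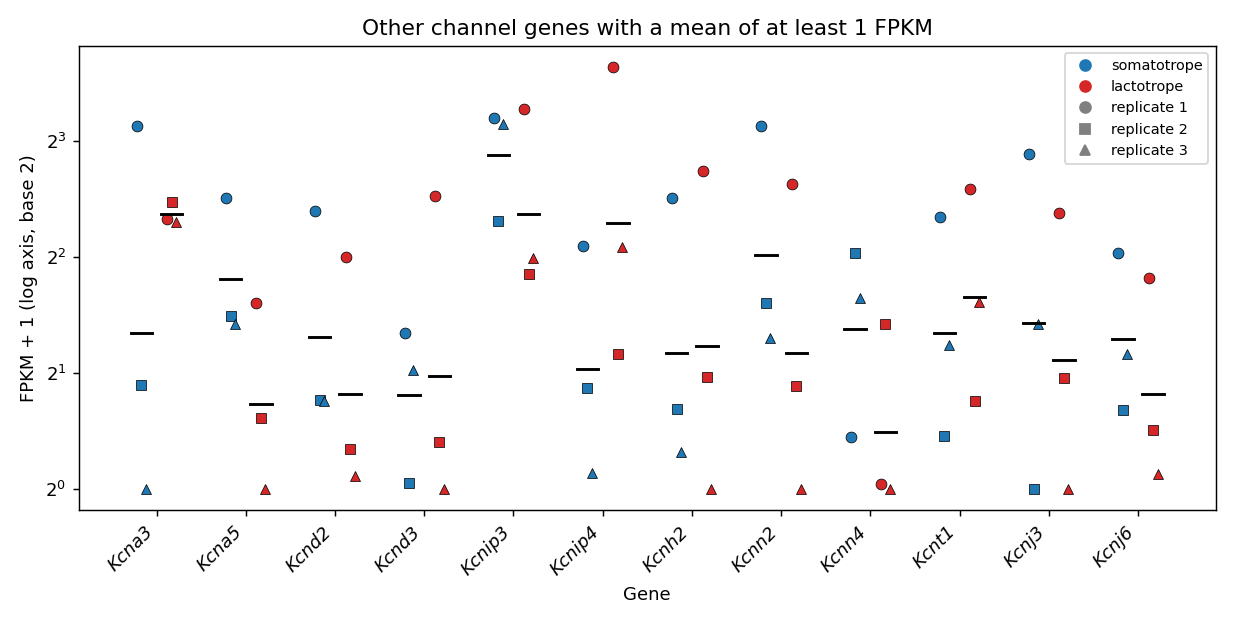
FPKM + 1 on a base 2 log axis for the other 12 tested channel genes, by cell type (color) and replicate (symbol), with black lines at the mean of log2(FPKM + 1). The cell types overlap for all 12, with Kcna3 within 3.95 to 4.57 FPKM in lactotropes and 0 to 7.75 FPKM in somatotropes, and circles of replicate 1 lie highest in both cell types for most genes.

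Inward rectifiers include the G protein-gated GIRK channels, the constitutive Kir2 channels and the pore of the ATP-sensitive (KATP) channel. The GIRK1 gene Kcnj3 had 6.39, a listed 0 and 1.68 FPKM in somatotropes and 4.22, 0.943 and a listed 0 FPKM in lactotropes. The GIRK2 gene Kcnj6 had 3.09, 0.608 and 1.25 FPKM in somatotropes and 2.53, 0.423 and 0.0971 FPKM in lactotropes, higher in somatotropes in each pair. Kcnj3 had no common direction over the pairs, its log2 difference was 0.32 (SE 0.87), and it turned to -0.40 without somatotrope 1 and to -0.24 without lactotrope 3. The GIRK3 gene Kcnj9 had 0.376, 0 and 0.666 FPKM in somatotropes and 1.01, 1.18 and 0 FPKM in lactotropes.

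The KATP pore gene Kcnj11 was low but did not overlap between the cell types. It had 1.42, 0.210 and 1.01 FPKM in somatotropes and 0.106, 0.0456 and a listed 0 FPKM in lactotropes, and with a mean of 0.465 FPKM it was not tested. Its regulatory partner Abcc8, which is not among the 44 genes, had 2.93, 0.465 and 0.159 FPKM in somatotropes and 1.73, 0.129 and a listed 0 FPKM in lactotropes, also higher in somatotropes in each pair. The Kir2 gene Kcnj2 was at most 0.326 FPKM in somatotropes and had 0.208, 0.550 and 1.64 FPKM in lactotropes, and Kcnj4 was above 0 only in somatotrope 3 (0.130 FPKM).

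The HCN genes were low. Hcn2 had 0.963, 0.0945 and 0.0633 FPKM in somatotropes and 2.13, 0.112 and 0.346 FPKM in lactotropes, higher in lactotropes in each pair. Hcn3 had 0.346, 0.00970 and 0.794 FPKM in somatotropes and 1.11, 0.109 and a listed 0 FPKM in lactotropes, with overlap and no common direction. Both had means under 1 FPKM and were not tested.

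Shares within a library do not depend on a scale factor for the library. Two-pore channels made up 32.2%, 72.7% and 49.6% of the summed FPKM of the 44 genes in somatotropes and 24.8%, 45.4% and 16.3% in lactotropes. BK genes made up 27.3%, 8.95% and 14.9% in somatotropes and 11.4%, 8.94% and 4.89% in lactotropes. Both classes had the larger share in the somatotrope of each pair, nearly level for BK in pair 2, and both overlapped. KChIP genes made up 6.72%, 4.70% and 10.8% in somatotropes and 19.7%, 10.1% and 31.2% in lactotropes. This share was larger in the lactotrope of each pair, with somatotrope 3 above lactotrope 2. The summed KChIP level was 11.6, 4.79 and 7.98 FPKM in somatotropes and 21.3, 4.49 and 6.25 FPKM in lactotropes. It was thus higher in the somatotrope in pairs 2 and 3, where the larger lactotrope share went with a lower sum of the 44 genes.

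**Figure D5:**
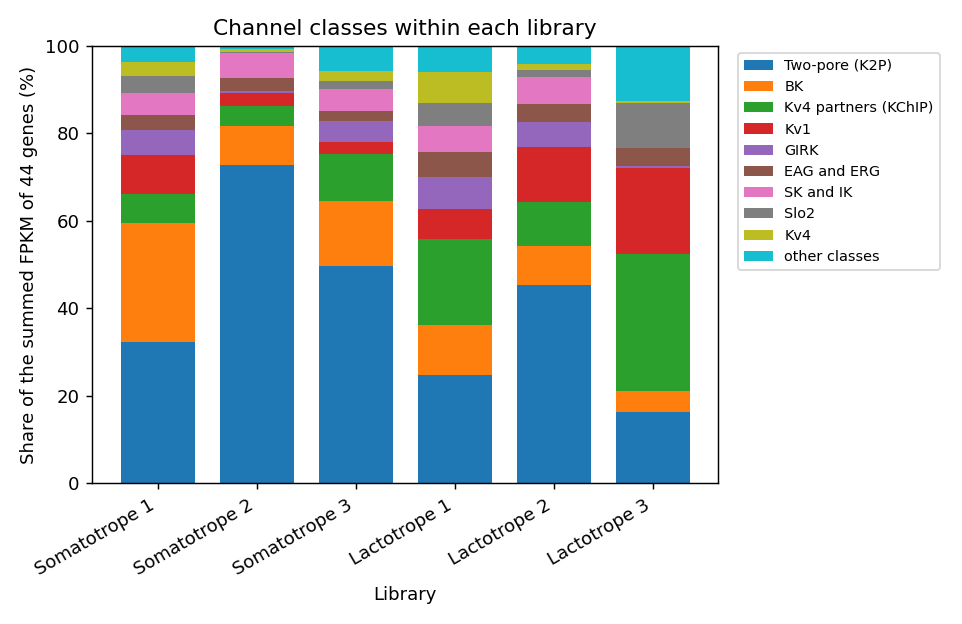
Stacked bars of each channel class as a percentage of the summed FPKM of the 44 genes in each of the 6 libraries. Two-pore channels range from 16.3% in lactotrope 3 to 72.7% in somatotrope 2, and KChIP genes from 4.70% in somatotrope 2 to 31.2% in lactotrope 3.

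A further 61 potassium and HCN channel genes and partners were listed for comparison. Of these, 9 passed the filter, 52 had means under 1 FPKM and 3 were at 0 in all libraries. None of the 9 passed limma, beside 0% of all tested genes. At an unadjusted p under 0.05 there were 0 (0.507% of all tested genes toward somatotropes and 0.455% toward lactotropes). With the replicate block there were 2 toward somatotropes (7.17%) and 1 toward lactotropes (3.75%). Of the 9, 2 lay on the somatotrope side in every pair (22.9% of tested genes) and 3 on the lactotrope side (11.2%). Of all 61 without the filter it was 7 (16.6% of genes with any value) and 5 (8.05%). The median log2 difference of the 9 was -0.26. The 3 highest were Kcnh8, an ELK channel, Kcnab1, a beta subunit of Kv1 channels, and Kcnk13, a two-pore channel known from microglia. Kcnh8 had 15.9, 1.74 and 0.520 FPKM in somatotropes and 14.8, 1.47 and 2.07 FPKM in lactotropes. Kcnab1 had 10.8, 7.96 and 1.65 FPKM in somatotropes and 3.95, 3.23 and 0.00340 FPKM in lactotropes, and its log2 difference was 1.25 (SE 0.86). Kcnk13 had 0.0781, 1.32 and 0.733 FPKM in somatotropes and 0.278, 3.86 and 5.73 FPKM in lactotropes, with a difference of -1.09 on the log2 scale (SE 0.77), lying on the lactotrope side in each pair as 15 of the 16 leukocyte markers did. Kcnj13, an inward rectifier of epithelia and the gene of the list with the smallest unadjusted p in limma without the block, had 0.253, 0.673 and 6.20 FPKM in somatotropes and 0.0840, 0 and 0 FPKM in lactotropes, a separation that was largest in pair 3.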

How the data were processed

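Expression was deposited by the authors as FPKM, in 30399 transcript rows (mm9) and 6 library columns whose names match the sample descriptions. The submitters' processing notes name TopHat, edgeR and bcl2fastq, without their roles. Per the labels' protocols, RNA from the sorted cells went through the NuGen Ovation V2 amplification. The counting of fragments is not described in the sources at hand. FPKM falls for all other genes where Gh or Prl takes much of a library: Prl made up 46.64%, 12.11% and 52.96% of the sum over genes in lactotropes 1 to 3, and Gh 27.45%, 9.95% and 20.06% in somatotropes 1 to 3, where Prl took a further 3.38%, 4.47% and 11.32%.

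The 889 rows without a symbol were left out, and 1 row was kept per gene. Values were tested as log2(FPKM + 1), which understates differences of low genes, for the 11642 genes that averaged 1 FPKM or more, with limma 3.58.1 (intensity trend, two-sided, Benjamini-Hochberg over all tested genes) in R 4.3.3. The code was tested on simulated data. There, limma called 0% of genes given a log2 difference of 2 and 14.2% of those given 4. With the replicate block it called 8.8% and 45.2%. A gene that was not called may therefore still differ. Same-numbered libraries, as titled, deviated together from their group means (correlations 0.762, 0.613 and 0.341), so p-values with the replicate number blocked are printed beside the unblocked ones where counts of calls moved. No 2 libraries were duplicates: at most 2.00% of genes agreed within 1%.

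The genes and lists were chosen with earlier results of these data known. Values in every library are given for genes that averaged 1 FPKM or more. Log2 differences are given where the groups separate, where all pairs agree by 0.5 on average, or for the highest of a class. Of the further list, the 3 highest and the 3 with the smallest p are named. Values given for genes outside this rule (among them those under 1 FPKM, and Abcc8) were chosen after being seen. Alternatives covered pseudocount, filters, scaling, row choice, block, weights, trend and left-out libraries.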

Additional observations from a re-analysis of the deposited data

How the results depend on the processing

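No channel gene was called by limma under any of the 17 alternatives, which says little about stability, since most of these fits called no gene at all. The fit with the replicate block called 0 of all tested genes. Over all tested genes, array weights gave 9 calls, and array weights with the replicate block, chosen after seeing the data, gave 43. Leaving out 1 library gave 0 to 3 calls, the 3 being without somatotrope 1. The count of channel genes whose groups do not overlap, 1 as reported (3.66% of all tested genes, both directions), was 3 without a filter (Kcnj11, Kcnk1 and Kcnk5, 3.23%), 2 with a filter at 0.5 FPKM (3.84%), 3 after median-ratio scaling (5.44%), and also 3 when quantiles were equalized (5.4%, Kcna5, Kcnma1 and Kcnmb4 in both), and 12 of 13 tested with replicates 2 and 3 only, where 36.4% of all tested genes did not overlap. With 1 library left out it was 1 to 10, the 10 of 16 being without lactotrope 1 (24.6% of all tested genes). The median log2 difference was 0.13 over the 44 genes without a filter (0.07 over all genes), 1.24 with a pseudocount of 0.1 (0.27), 0.85 after median-ratio scaling (0.04), 1.13 with replicates 2 and 3 only (0.28), and 0.29 to 1.03 with 1 library left out, highest without lactotrope 1 (0.59). The sign turned for Kcnh2 with a pseudocount of 0.1 (0.33), for Kcnt1 (0.0011) and Kcnj3 (-0.20) with array weights, and for Kcnj3 with array weights and the block (-0.012). With 1 library left out, Kcnh2 ran from -0.73 to 0.69, Kcnt1 from -0.81 to 0.16 and Kcnj3 from -0.40 to 1.04. The cause was not tested. Fragment numbers, unknown in 5 libraries, limit what can be read from values near 0.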

Other observations

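The row used for a gene set some values. Kcnd3 had 2 rows in the table, and somatotrope 3 held 1.03 FPKM in the row used and 0 in the other. The 2 rows of Kcnt1 gave 1.36 and 1.94 FPKM in somatotrope 3 and 2.05 and 2.80 FPKM in lactotrope 3. In replicate 1 they gave 4.10 and 3.99 FPKM in the somatotrope and 5.03 and 3.94 FPKM in the lactotrope. Only the row used was thus higher in lactotropes in each pair. For Kcnk2 the 3 rows lay between 28.5 and 29.7 FPKM in somatotrope 1 and between 0.063 and 0.532 FPKM in lactotrope 3.

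Several channel genes share part of their span with a gene on the opposite strand, beside the pair of Kcnmb4 and 1700058G18Rik. Kcnq1ot1, the imprinted antisense transcript within Kcnq1, had 4.89, 0.172 and 0.496 FPKM in somatotropes and 3.60, 0.182 and 0.134 FPKM in lactotropes, above Kcnq1 in every library but lactotrope 2. Within Kcnip4, 5730480H06Rik had 2.31, 0 and 0.0333 FPKM in somatotropes and 2.65, 0.419 and 0.738 FPKM in lactotropes, higher in lactotropes in each pair as Kcnip4 was. At the end of Kcnn2, A330093E20Rik had 3.31, 0.317 and 0.380 FPKM in somatotropes and 1.63, 0.172 and a listed 0 FPKM in lactotropes, higher in somatotropes in each pair as Kcnn2 was. Without strand, reads in a shared stretch cannot be told apart.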
